A study of Mus musculus with 50 samples.

Results

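Type I interferon-stimulated genes are genes that cells switch on when interferon binds its receptor, and 37 of the 38 genes listed for this group were found among the 21954 genes of the expression tables. The members were chosen by name, and 1 of them, Mx2, was not analysed here. They were followed in 9 libraries of bone marrow-derived macrophages and in 41 libraries of amputated mouse digits. The macrophages were grown from the marrow of female C57BL/6 mice aged 6 to 8 weeks. M0 cells were naive macrophages in basal medium, M1 cells received IFN-γ and LPS and M2 cells IL-4, with 3 libraries each. M1 and M2 cells were collected 24 hours into treatment. The labels call M0 baseline and give it no time, so M0 may not be matched to them in time of culture. Nothing in the labels says that libraries of one state came from separate mice or cultures, so the p-values measure only the spread between these libraries. The digits were hindlimb digits 3 of male C57Bl/6 mice aged 9 to 10 weeks, cut through the distal phalanx (P3). The 29 non-regenerative digits (NR) came from 9 times after the cut (hours 0, 3, 6, 12, 24, then days 3, 7, 14, 21), 5 digits at day 7 and 3 at every other time. The 12 intermediate digits (INT) came from hours 0 and 24 and from days 14 and 21, 3 digits each. The labelled amputation level ran from 60% to 80% in NR digits, of which 17 lay above and 11 below the limit of 67% given in the methods, and from 41% to 55% in INT digits.

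Interferon binding to its receptor activates the kinases Jak1 and Tyk2, and a complex that holds Stat2 and Irf9 then binds the interferon-stimulated response element (ISRE) in target promoters. The products block viruses at many steps, from sensing foreign RNA and DNA to degrading RNA, tagging proteins with Isg15 and holding virions at the cell surface. Macrophages make and answer type I interferon when Toll-like receptors meet microbial products such as LPS, and IFN-γ reaches an overlapping set of genes through a different element, GAS.

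The 250 bases before the RefSeq start (GRCm38.p6) are shown for members whose changes are described below, to set their response beside the letters of their promoters. Capitals mark matches to the ISRE letters (GAAA, then any bases NN, then GAAA) on either strand. Overlapping matches run together. The first 5 held a match and are members whose level is given library by library below. The last 2 held none in the window searched and had the largest M1 changes of all members. Isg15, a ubiquitin-like modifier, had 3 overlapping matches that began 78, 72 and 66 bases before the start. Ifit1, an RNA-binding protein, had 2 that began 104 and 85 bases before it.

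Isg15, chr4:156200819-156201068, minus strand: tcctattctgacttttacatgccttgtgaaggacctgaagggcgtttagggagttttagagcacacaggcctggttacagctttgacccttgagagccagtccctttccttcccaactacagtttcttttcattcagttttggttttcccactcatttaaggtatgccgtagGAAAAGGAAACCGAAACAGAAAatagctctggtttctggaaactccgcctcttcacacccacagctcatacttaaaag
Ifit1, chr19:34640639-34640888, plus strand: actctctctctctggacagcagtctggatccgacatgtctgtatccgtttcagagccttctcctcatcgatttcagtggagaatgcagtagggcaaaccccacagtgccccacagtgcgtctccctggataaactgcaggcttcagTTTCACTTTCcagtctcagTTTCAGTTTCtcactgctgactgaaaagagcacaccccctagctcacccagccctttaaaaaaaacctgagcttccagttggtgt
Oas3, chr5:120777660-120777909, minus strand: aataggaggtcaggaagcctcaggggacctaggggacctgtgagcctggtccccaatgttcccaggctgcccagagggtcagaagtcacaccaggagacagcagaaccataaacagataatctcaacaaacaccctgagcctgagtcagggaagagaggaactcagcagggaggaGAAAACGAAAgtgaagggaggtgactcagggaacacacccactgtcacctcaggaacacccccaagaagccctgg
Ifi205, chr1:174031756-174032005, minus strand: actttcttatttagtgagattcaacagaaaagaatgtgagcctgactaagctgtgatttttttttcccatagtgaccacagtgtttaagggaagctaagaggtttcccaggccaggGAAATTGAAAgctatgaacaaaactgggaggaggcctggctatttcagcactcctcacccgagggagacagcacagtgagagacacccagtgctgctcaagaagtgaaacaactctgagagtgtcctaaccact
Rsad2, chr12:26456453-26456702, minus strand: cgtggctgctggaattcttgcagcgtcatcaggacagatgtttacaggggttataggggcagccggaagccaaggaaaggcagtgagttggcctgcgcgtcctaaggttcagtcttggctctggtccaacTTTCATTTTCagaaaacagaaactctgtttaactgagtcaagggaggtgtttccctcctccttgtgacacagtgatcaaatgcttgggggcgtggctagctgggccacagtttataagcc
Oasl1, chr5:114922990-114923239, plus strand: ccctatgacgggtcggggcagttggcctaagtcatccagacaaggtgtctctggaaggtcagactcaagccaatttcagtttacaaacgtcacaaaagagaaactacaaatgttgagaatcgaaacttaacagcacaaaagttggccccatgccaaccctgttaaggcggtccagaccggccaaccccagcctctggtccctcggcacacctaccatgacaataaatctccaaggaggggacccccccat
Cmpk2, chr12:26468965-26469214, plus strand: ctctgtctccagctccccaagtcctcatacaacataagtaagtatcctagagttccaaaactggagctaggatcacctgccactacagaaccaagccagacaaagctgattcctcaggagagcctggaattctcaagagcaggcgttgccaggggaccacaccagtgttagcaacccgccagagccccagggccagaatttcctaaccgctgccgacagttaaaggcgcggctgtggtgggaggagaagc

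RefSeq promoters were matched for 27 of the 37 members. Searched from 250 bases before to 50 after the start, ISRE letters were found in 13 of these 27 (48.1%) and in 3.49% of 27025 genes with 1 promoter each. GAS letters (TTCNNNGAA), which can overlap an ISRE match, were found in 6 of the 27 (22.2%) and in 8.47% of all genes. A match describes the letters only.

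The macrophage libraries held 15683424 to 27904773 expected counts, and every member had a count in all 9 of them. In the digits the totals were 1468749 to 13011782, the members together took 349 to 3845 counts per digit, and 10 members had a count in every digit. The digits that stood apart, 3 in number, did so in their whole expression profile: replicate 3 at 3 hours, replicate 2 at 7 days and replicate 2 at 14 days. Their median Spearman correlations with the other digits were 0.812, 0.687 and 0.634. Members with no count numbered 19 in the first, 23 in the second and 9 in the third. Normalized TPM in replicate 2 at 14 days summed to 3362791, against at most 1434851 in any other digit, so its levels on that scale are inflated. Levels below are normalized TPM, the authors' length-corrected scale. Macrophages and digits were normalized separately, and no test crosses them. In macrophages, all 8 macrophage markers listed reached 1 normalized TPM in each state, and their summed level was 19419 to 22278 in M0, 10537 to 11263 in M1 and 9264 to 9812 in M2. Normalized TPM of all genes summed to 1331226 to 1355441 in M1 and 892687 to 926275 in M2. On the CPM scale (counts scaled to a common library total) the marker sums were 19673 to 21371 in M0, 6529 to 6990 in M1 and 10035 to 10212 in M2, so that M1 lay above M2 on the first scale and below it on the second. These sums moved with the states, and their part in the results was not tested. Among the other lists, fibroblast markers summed to 537 to 802 normalized TPM in M0, 347 to 396 in M1 and 1026 to 1130 in M2. Neutrophil markers summed to 381 to 396, 169 to 201 and 435 to 490 in the same order. The part of these lists was not tested either. The keratinocyte markers summed to at most 1.67.

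The first comparison asked how the members differed between M1 and M0. All 37 of them were called higher in M1 than in M0 by edgeR (Benjamini-Hochberg adjusted p under 0.05 and more than 2-fold change), where 46.1% of the 12939 genes tested were called in either direction and 20.1% were called higher. The median log2 fold change was 3.64 over the members and -0.09 over all genes tested, and the members ran from 2.27 (Ifi203) to 8.37 (Oasl1). In all 37 members every M1 library lay above every M0 library, which held for 41.1% of all genes tested. Summed over the members, normalized TPM was 2263, 3139 and 2861 in the 3 M0 libraries and 65021 to 67450 in the M1 libraries. As a share of expected counts, the members took 0.438% ± 0.0737 (SD, n = 3) in M0 and 6.34% ± 0.0929 in M1.

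Among the antiviral effectors, Rsad2 encodes viperin, a radical SAM enzyme that makes a chain-terminating nucleotide. Its level was 51.7, 70.6 and 66.5 in M0, 844, 548 and 565 in M2, and 13900, 13309 and 13247 in M1, the highest M1 level of any member. The states did not overlap, and the log2 fold change was 7.75 ± 0.13 (SE) in M1 against M0 (edgeR adjusted p = 7.78e-14). Cmpk2, a mitochondrial nucleotide kinase whose gene lies beside Rsad2 on chromosome 12, went from 20.3, 27.9 and 26.0 in M0 to 6405, 6394 and 6039 in M1. It rose by 8.0 ± 0.12 on the log2 scale (edgeR adjusted p = 4.9e-14), and M2 lay between at 377, 243 and 255. Isg20, a nuclease that degrades single-stranded RNA, rose by 6.75 ± 0.10 from 4.95 to 7.27 in M0 to 633 to 719 in M1. Bst2, or tetherin, which holds budding virions at the cell surface, was already at 269 to 323 in M0 and rose by 3.68 ± 0.08. Trim30a, a regulator of Toll-like receptor signalling, and Samd9l were called with the smaller log2 fold changes of 2.75 and 3.09.

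Members of one family differed widely. Oasl1 belongs to the oligoadenylate synthetase family but lacks the enzyme's activity. It was at 3.66, 7.13 and 5.49 in M0 and at 1747, 1844 and 1727 in M1, with M2 at 132, 91.2 and 93.2. Its log2 fold change of 8.37 ± 0.16 was the largest of all members in M1 against M0 (edgeR adjusted p = 2.73e-13), and no library overlapped between states. Among the other 5 OAS genes, which make or resemble the enzymes that activate RNase L, the M1 changes ran from 2.72 (Oas2) to 4.25 (Oas1g). Oas2 was at 29.1, 48.6 and 44.7 in M0, at 56.2, 48.0 and 44.6 in M2 and at 263, 282 and 251 in M1. The M1 libraries lay above both other states, which overlapped each other. Mx1, which encodes a dynamin-like GTPase, was at 17.8, 28.0 and 26.4 in M0, 218, 152 and 148 in M2 and 3316, 3322 and 3266 in M1. Its rise in M1 was 7.01 ± 0.14 (edgeR adjusted p = 3.8e-13).

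The DNA-binding PYHIN proteins and the Z-nucleic acid sensor Zbp1 showed a similar range. Ifi205 was at 6.51, 9.88 and 8.25 in M0, at 182, 119 and 115 in M2 and at 2052, 2414 and 1972 in M1. It rose by 7.96 ± 0.14 in M1 (edgeR adjusted p = 1.01e-13) with no overlap between states. Its neighbours on chromosome 1, Ifi203 and Ifi204, rose by 2.27 and 3.02, and in M0 both were already above 139 normalized TPM in every library. Zbp1 was at 27.1 to 54.0 in M0 and 554 to 610 in M1 and rose by 4.01. Ifi203 overlaps Mndal, a related gene on the same strand. These 3 genes, Oas1a with Oas1g, and the 3 Ifit genes are close paralogs, so reads that match several of them were shared out by RSEM's estimate and their separate levels are uncertain.

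In the Isg15 pathway, the modifier itself was at 39.6, 76.7 and 56.4 in M0, at 1138, 826 and 876 in M2 and at 5906, 5460 and 5517 in M1. Its M1 change was 6.64 ± 0.19 (edgeR adjusted p = 6.1e-12). Usp18, the protease that removes Isg15 and also dampens the interferon receptor, rose by 6.10 ± 0.11, Herc6, its ligase, by 4.56 ± 0.09, and Uba7, its activating enzyme, by 2.57 ± 0.07. The Ifit genes, whose proteins bind foreign RNA, rose by 4.53 (Ifit3), 5.96 (Ifit2) and 6.50 (Ifit1). Ifit1 was at 24.1, 34.9 and 32.6 in M0, at 317, 214 and 222 in M2 and at 2742, 2819 and 2653 in M1.

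The cytosolic RNA sensors had smaller changes. Ifih1, Ddx58 and Dhx58 recognise double-stranded or uncapped RNA, and Eif2ak2 is the kinase that halts translation. Their M1 changes were 3.64, 2.90, 2.97 and 2.30. Parp9, its partner Dtx3l and Parp14, an ADP-ribosyltransferase, rose by 2.33, 2.44 and 3.06. Parp9 and Dtx3l overlap on opposite strands, and whether the counting used strand is not given in the sources used here. Of the remaining members, Ifi44 rose from 9.21 to 19.8 in M0 to 550 to 578 in M1 (5.34 ± 0.19), and Ifi35, Xaf1, Rtp4, Lgals3bp and Tor3a rose by 2.74 to 3.75.

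**Figure D1:**
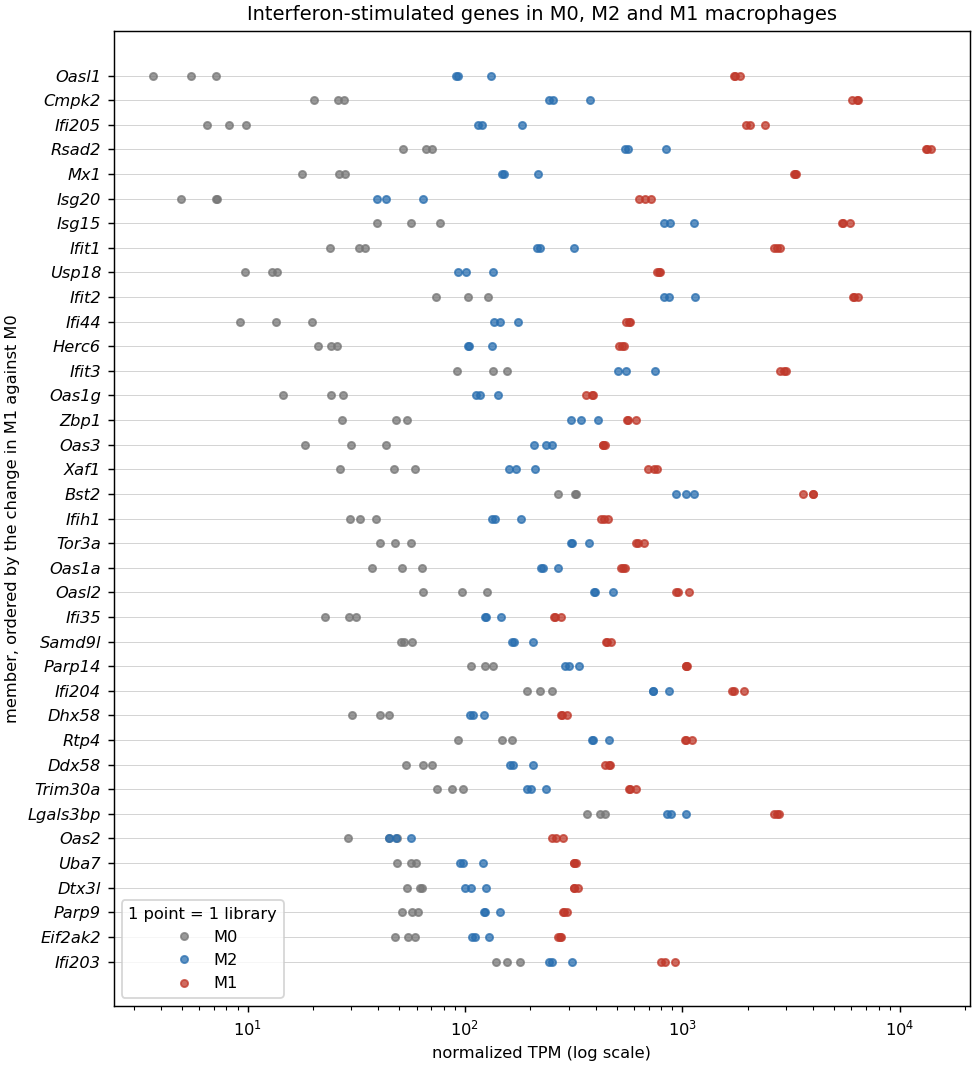
Normalized TPM (log scale) of the 37 members in 3 libraries each of M0 (grey), M2 (blue) and M1 (red) macrophages, 1 point per library, with members ordered by their log2 fold change in M1 against M0. In every member the 3 M1 points lie to the right of all M0 and M2 points, and in Oas2 the M2 and M0 points overlap.

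Alternative activation also came with higher levels of most members. In M2 against M0, 34 of the 37 were called higher and none lower, where edgeR called 22.3% of 12976 genes in either direction and 11.0% higher. The median log2 fold change was 2.17 over the members and 0.00 over all genes tested. The 3 members that were not called were Dtx3l (0.83 ± 0.08) and Ifi203 (0.71 ± 0.10), which changed less than 2-fold, and Oas2 (0.21 ± 0.15, edgeR adjusted p = 0.225). The other 36 had all M2 libraries above all M0 libraries, which held for 41.2% of all genes tested. The largest rises were those of Oasl1 (4.25 ± 0.20), Isg15 (3.99 ± 0.20), Ifi205 (3.94 ± 0.20), Cmpk2 (3.50 ± 0.17) and Ifi44 (3.37 ± 0.20). Ifi44 was at 176, 137 and 144 in M2, above its M0 levels of 9.21, 19.8 and 13.5. Both M1 and M2 were set against the same M0 libraries, so their changes are not independent of each other.

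Set directly against M2, all 3 M1 libraries lay above all M2 libraries in all 37 members, which held for 42.8% of the genes tested, and 33 of 37 were called higher, where 48.0% of 12934 genes were called in either direction and 20.1% higher. The other 4, Oas3, Tor3a, Ifi35 and Zbp1, differed by less than 2-fold, with log2 fold changes of 0.86 ± 0.07, 0.88 ± 0.07, 0.95 ± 0.06 and 0.95 ± 0.09. For instance Oas3, an oligoadenylate synthetase, was at 18.5, 43.2 and 30.0 in M0, 251, 208 and 237 in M2 and 431, 431 and 440 in M1. M1 was thus 1.82-fold higher than M2, with M0 below both. At the other end, Cmpk2 was 21.2-fold, Rsad2 20.4-fold, Mx1 18.0-fold, Oasl1 16.3-fold and Ifi205 15.2-fold higher in M1 than in M2. The median log2 fold change over the members was 1.53, against -0.08 over all genes tested. By role, the median M1 to M2 difference ran from 1.3 in the RNA sensors to 2.70 in the Ifit genes and 2.81 in the antiviral effectors, with 4.17 for Mx1, the only member of its family analysed.

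**Figure D2:**
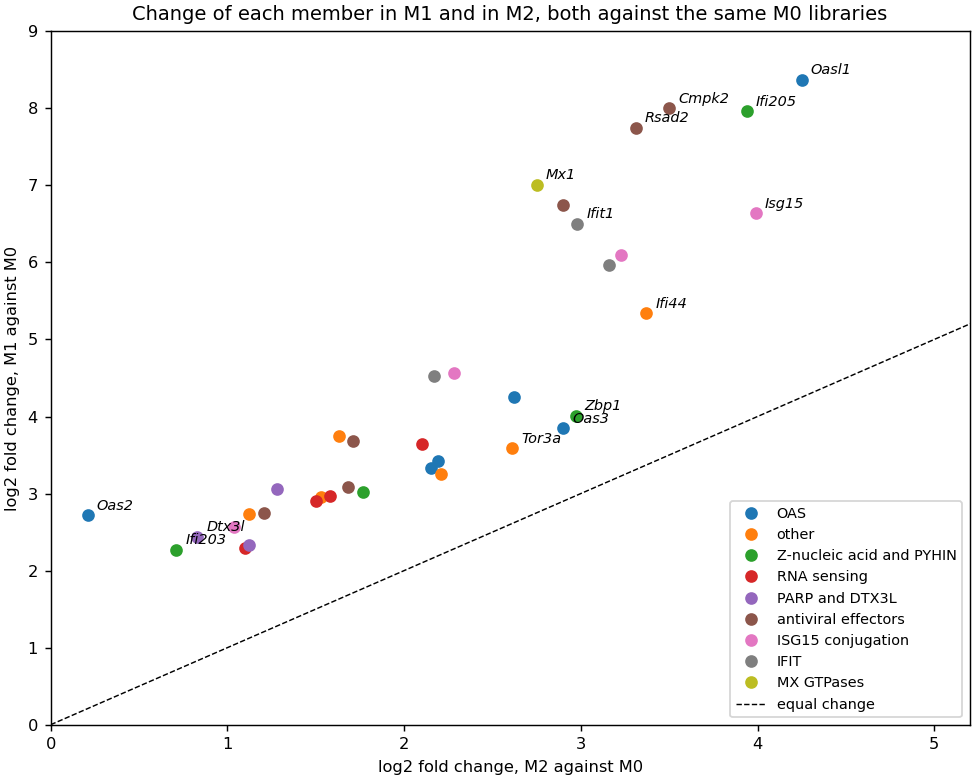
Log2 fold change of each member in M2 against M0 (horizontal) and in M1 against M0 (vertical), coloured by role; both axes share the 3 M0 libraries, and the dashed line marks equal change. Every member lies above the line, from Oas2 at 0.21 in M2 and 2.72 in M1 to Oasl1 at 4.25 and 8.37.

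Within a state the members moved together from library to library. M0 replicate 1 had the lowest of the 3 M0 levels in all 37 members, whereas it was lowest in 30.6% of 11820 genes with a mean of at least 1 normalized TPM. M2 replicate 1 had the highest of the 3 M2 levels in all 37, against 36.7% of those genes. In M1 no library was highest in all members. Replicate 2 was highest in 26 of 37. The spread within a state was therefore shared between members.

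The ligands were scarce. Of 19 interferon ligand genes found in the tables (Ifnb1, the Ifna genes, Ifnab, Ifne, Ifnk, Ifnl2 and Ifnl3), Ifnb1, which encodes interferon-β, had 52, 27 and 54 expected counts in M1, 3, 1 and 0 in M2 and 1, 0 and 0 in M0. It was called higher in M1 than in M0 (edgeR adjusted p = 2.35e-08) and than in M2 (adjusted p = 1.47e-08), and was too low to test between M2 and M0. The other 18 were too low to test in any macrophage comparison, with at most 2 counts in a library. Of the receptor chains and kinases, Ifnar1 and Tyk2 were called higher in M1 than in M0 (1.47 and 1.73) and none of the 4 was called in M2.

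The transcription factors of the pathway followed the members in part. Irf7, which drives the Ifna genes, was at 49.3, 94.4 and 74.5 in M0, 701, 519 and 529 in M2 and 4202, 4109 and 4156 in M1, with no overlap, and rose by 5.85 ± 0.19 in M1 and 2.97 ± 0.20 in M2. Stat2 and Irf1 were called in both, by 3.85 and 3.30 in M1 and 1.48 and 1.44 in M2. Irf9 was called in M1 (1.61 ± 0.06) but had a log2 fold change of 0.17 ± 0.07 in M2, and Irf3, which is activated by phosphorylation, was called in neither.

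All 5 negative regulators listed were called higher in M1 and 3 in M2. Socs1, an inhibitor of Jak kinases, was at 1.71, 2.19 and 1.78 in M0, 60.0, 49.4 and 45.3 in M2 and 140, 150 and 151 in M1. Socs3, a related inhibitor, was at 11.1, 11.3 and 12.8 in M0 and 14.3, 15.5 and 14.8 in M2, but at 758, 725 and 693 in M1. Socs1 was thus called in both states and Socs3 in M1, where it rose by 5.96 ± 0.07. Of the 10 genes that sense nucleic acid or LPS and pass the signal to the ligand genes, 6 were called higher in M1 (Tlr3, Ticam1, Ikbke, Tbk1, Tlr9 and Mb21d1) and 2 in M2 (Tlr3 and Mb21d1). Over all 44 pathway genes in the tables, 26 could be tested in M1 against M0 and 19 were called higher, against 20.1% of all genes tested. In M2 against M0, 25 could be tested and 9 were called higher, against 11.0% of all genes tested. None was called lower in either.

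In the digits, the question was how the members behaved over time after amputation. A digit library mixes all cells around the wound bed, so fewer cells of a type and less RNA per cell cannot be told apart. The members summed to 115 to 845 normalized TPM per digit, and their summed share of expected counts had a median of 0.0239% over the 41 digits. Against NR digits at 0 hours, no member was called at 3 hours, 1 of 29 tested at 6 hours, 6 of 32 at 12 hours and 2 of 33 at 24 hours. The shares of all tested genes that edgeR called were 0, 4.85%, 11.4% and 10.7% at these times, and those called higher were 3.23% at 6 hours, 6.76% at 12 hours and 5.57% at 24 hours, with 5.14% called lower at 24 hours. All these comparisons share the same 3 digits at 0 hours.

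At 12 hours the members called were all higher: Ifi204 and Ifi205, which bind DNA, the modifier Isg15, and Oas2, Oas3 and Oasl2 of the oligoadenylate synthetase family. The median log2 fold change at 12 hours was 0.69 over the 32 members tested and -0.03 over all genes. Of the 32, 26 were positive, against 48.2% of all genes. Ifi204 had the clearest course. It was at 3.55, 4.40 and 5.35 at 0 hours, 26.0, 11.7 and 8.63 at 6 hours, 78.8, 32.7 and 44.8 at 12 hours and 44.4, 23.7 and 58.0 at 24 hours. All digits at 6, 12 and 24 hours lay above all digits at 0 hours. So did all digits at day 3 (89.6, 7.56 and 18.1) and day 7 (13.9, 34.8, 10.2, 44.7 and 6.23). At those days Ifi204 was called by DESeq2 but not by edgeR. Its log2 fold changes were 1.85 ± 0.42 at 6 hours (edgeR adjusted p = 0.0417), 3.63 ± 0.37 at 12 hours (adjusted p = 0.00108) and 3.34 ± 0.36 at 24 hours (adjusted p = 0.00117). Its call at 6 hours was kept without replicate 3 of that time and lost without any one of the other 5 digits, with log2 fold changes of 1.31 to 2.0, while its calls at 12 and 24 hours were kept without any one digit.

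Isg15 was at 1.34, 2.74 and 2.74 at 0 hours and 41.1, 6.05 and 13.2 at 12 hours, with no overlap, and rose by 3.11 ± 0.78 (edgeR adjusted p = 0.029). At 24 hours its digits were at 8.70, 1.65 and 17.3 and overlapped those at 0 hours. Ifi205 was at 1.21, 0.719 and 1.63 at 0 hours and 8.47, 9.20 and 9.24 at 12 hours, the tightest group of the 6, with a rise of 3.03 ± 0.46 (adjusted p = 0.00515). Oas2 was at 0.811, 0.210 and 0.693 at 0 hours and 3.42, 1.91 and 4.35 at 12 hours and rested on 25 to 39 counts per digit at 12 hours and 1 to 8 at 0 hours. Its rise was 3.68 ± 0.78 (adjusted p = 0.0164).

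Oas3 was at 0.355, 0.200 and 2.68 at 0 hours and 8.52, 1.53 and 7.09 at 12 hours. The groups overlapped, since 1 digit at 12 hours lay below 1 at 0 hours, and the log2 fold change was 2.60 ± 0.71 (edgeR adjusted p = 0.0373). Oasl2 was at 2.75, 5.83 and 7.04 at 0 hours and 28.2, 7.81 and 13.1 at 12 hours, without overlap, and rose by 1.98 ± 0.47 (adjusted p = 0.0238). Ifit1, at 1.35, 0.859 and 0.372 at 0 hours and 8.86, 1.3 and 3.28 at 12 hours, was not called (2.48 ± 0.80, adjusted p = 0.0646). Its groups overlapped. In all, 9 of 37 members had all 12-hour digits above all 0-hour digits. This held for 18.4% of all genes tested, a set that holds only 32 of the 37 members, so these shares are on unlike sets.

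The call at 12 hours depended on the digits used. Leaving out 1 digit at a time left between 2 and 10 members called, with Ifi204 and Ifi205 called in all 6 cases. Without replicate 1 or without replicate 3 at 12 hours, or without replicate 2 at 0 hours, those were the 2 called, and without replicate 2 at 12 hours there were 10. DESeq2 called 11 members, and a fit of all 41 digits together called Ifi204 alone. The label dates split the digits into 2 periods, an earlier and a later. All 3 digits at 12 hours are of the earlier period, while 2 of the 3 at 0 hours are of the later one. Against the single 0-hour digit of the earlier period, all 3 digits at 12 hours lay higher in 12 of all 37 members (32.4%). This held for 30.6% of 13691 genes with a mean of at least 1. The 6 called members were among the 12, but they had been called with these same digits, so this is not separate evidence. The 3 digits at 12 hours and that 0-hour digit carry the same date, and the other 2 at 0 hours carry another. With the date as a block, the change therefore rests on a single 0-hour digit. The log2 fold changes in that fit were 3.97 ± 0.63 for Ifi204, 3.02 ± 0.77 for Ifi205 and 2.86 ± 0.73 for Oasl2. For Isg15, Oas2 and Oas3 they were 3.95 ± 1.42, 3.94 ± 1.39 and 3.26 ± 1.23. Neutrophil markers also moved: their summed level was 17.5 to 43.1 CPM at 0 hours and 242 to 546 at 12 hours, and macrophage markers went from 117 to 231 to 261 to 433. Keratinocyte markers were at 37101 to 69858 CPM at 0 hours and 30853 to 34931 at 12 hours, and lymphocyte and NK cell markers at 8.46 to 15.8 and 2.45 to 5.36, without overlap in either list. All 8 neutrophil markers were detected at 0 hours and Ly6g had no count at 12 hours. Plasmacytoid dendritic cell markers, of which Klk1 and Cox6a2 had no count at either time, summed to 4.83 to 9.03 normalized TPM at 0 hours and 1.31 to 2.63 at 12 hours. The part of these cells in the members' change was not tested.

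At 24 hours Tor3a, an ATPase of the endoplasmic reticulum, was the only member called lower. It was at 18.8, 16.7 and 10.8 at 0 hours and 9.01, 6.71 and 15.1 at 24 hours, and fell by 1.14 on the log2 scale (SE 0.24, edgeR adjusted p = 0.016), although the groups overlapped on this scale. It was not called without replicate 2 at 0 hours, by limma on normalized TPM (adjusted p = 0.318), or in the fits of all 41 digits without and with the period (adjusted p = 0.174 and 0.132). Neutrophil markers at 24 hours summed to 411 to 792 CPM and macrophage markers to 83.7 to 386, and their part was not tested.

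**Figure D3:**
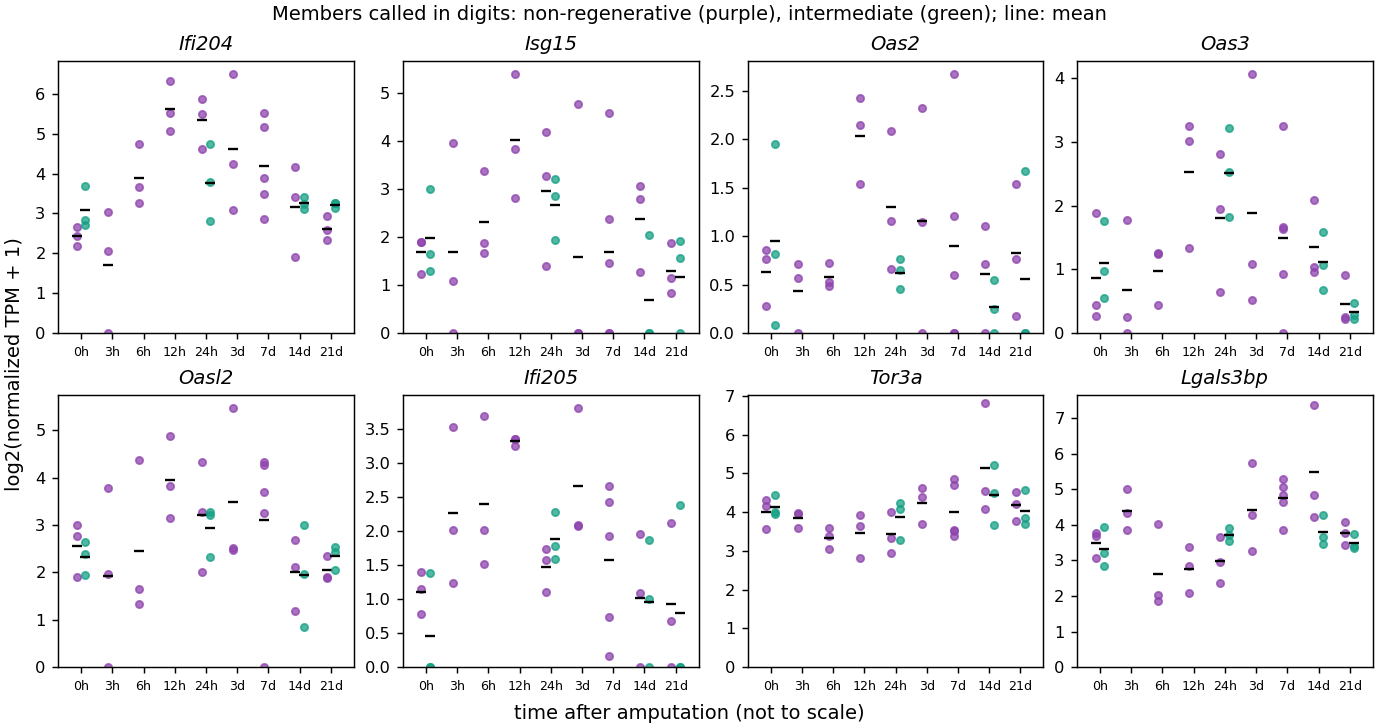
Level of 8 members, log2(normalized TPM + 1), in each non-regenerative (purple) and intermediate (green) digit by time after amputation, with the mean of each group as a short black line. In non-regenerative digits Ifi204 lies above its 0-hour digits in every digit from 6 hours to day 7. Single high digits set the mean of Isg15, Oas3 and Oasl2 at 3 days, and replicate 2 at 14 days, whose scale is inflated, that of Tor3a and Lgals3bp.

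No member was called in NR digits at 3 hours or from day 3 on. At hour 3 and days 3, 7, 14, 21 in that order, 2, 7, 2, 4 and 1 members had an unadjusted p under 0.05 in edgeR, which 10.8%, 11.1%, 4.34%, 7.70% and 7.20% of all genes had. DESeq2 called 1, 2, 1, 2 and 1 members. EdgeR called 0, 0.723%, 0.0537%, 0 and 0.452% of all genes. The median log2 fold change of the members tested was -0.34, 0.97, 0.40, -0.12 and -0.23 in the same order, against between -0.05 and 0.02 over all genes. At 3 days 25 of the 28 members tested had a positive change, against 49.4% of all genes. All 37 members were higher in replicate 1 of that time than in its other digits. When all 9 times were fitted together, edgeR called Ifi204 (adjusted p = 0.00882) and Lgals3bp (adjusted p = 0.0286), a secreted glycoprotein, as changing over the series, where 7.62% of 14434 genes were called. Against 0 hours, edgeR called Lgals3bp at no single time. It was at 12.6, 7.35 and 11.8 at 0 hours and at 32.7, 24.2, 13.5, 37.9 and 27.8 at day 7. All digits at 3 hours, day 7 and day 14 lay above all digits at 0 hours, with replicate 2 at 14 days on its inflated scale. At 12 hours it was at 6.17, 9.31 and 3.26 and at 24 hours at 6.72, 4.17 and 11.6, so no digit there lay above the highest at 0 hours. Without the 3 digits that stand apart 4 members were called (Ifi204, Lgals3bp, Parp9 and Tor3a). Without replicate 2 at 7 days there were 5, and without replicate 3 at 14 days there were 4. Lgals3bp was not called without replicate 2 at 14 days, replicate 3 at 0 hours, replicate 1 at 12 hours or either replicate 1 or replicate 2 at 24 hours, and Ifi204 was called in all of these.

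**Figure D4:**
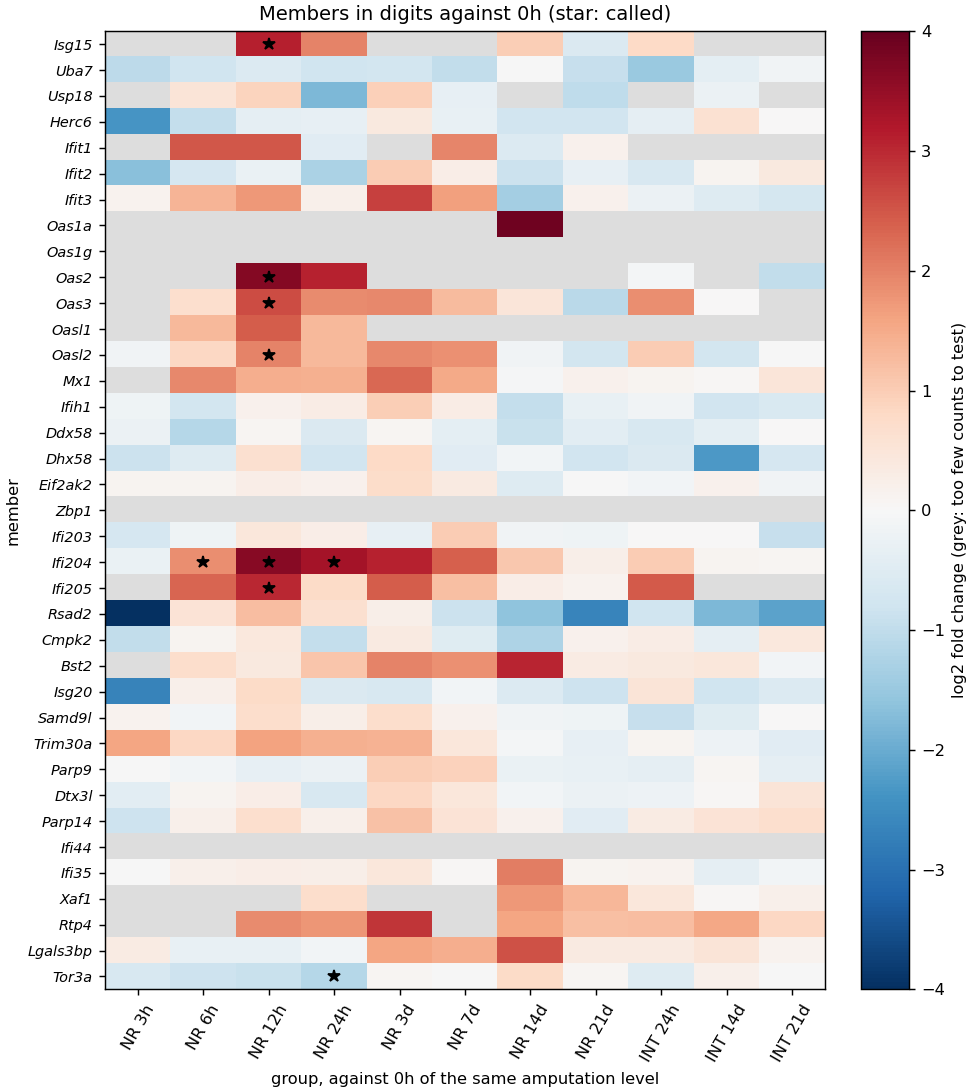
Log2 fold change (colour, from -4 to 4) of each member in each group of digits against the 0-hour digits of the same amputation level; stars mark called members and grey cells had too few counts to test. Stars stand at 6 hours (Ifi204), 12 hours (6 members) and 24 hours (Ifi204 higher, Tor3a lower) in non-regenerative digits.

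The wide spread at 3 days came from 1 digit. In replicate 1 at 3 days the members summed to 845 normalized TPM and 0.110% of expected counts, against 135 and 191, and 0.0173% and 0.0268%, in the other 2 digits of that time. All 37 members were higher in it than in either of the others, by a median ratio of 3.77 over the higher of them, whereas 32.3% of 13691 genes were higher in it and the median ratio was 0.826. In 30 members the ratio was above 2, which held for 5.04% of those genes. Isg15 and Oas1g were at 0 in both other digits, so they have no ratio and enter neither the median nor the 30. It held the highest level of all 41 digits in 19 members, among them Ifit3 at 82.1, Ifi204 at 89.6, Oasl2 at 43.1 and Rtp4 at 40.0, and the highest of 1.26% of those genes. Macrophage markers in this digit summed to 507 CPM, against 133 and 541 in the others, and neutrophil markers to 306, against 274 and 412. These marker sums were not highest in replicate 1, and their part was not tested. Its total was 3488364 counts, the lowest of the 3, and its median Spearman correlation with other digits was 0.905, against 0.911 and 0.897. Replicate 4 at 7 days had the next highest sum among digits on an ordinary scale, 496 normalized TPM and 0.0688% of counts, with macrophage markers at 1098 CPM.

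**Figure D5:**
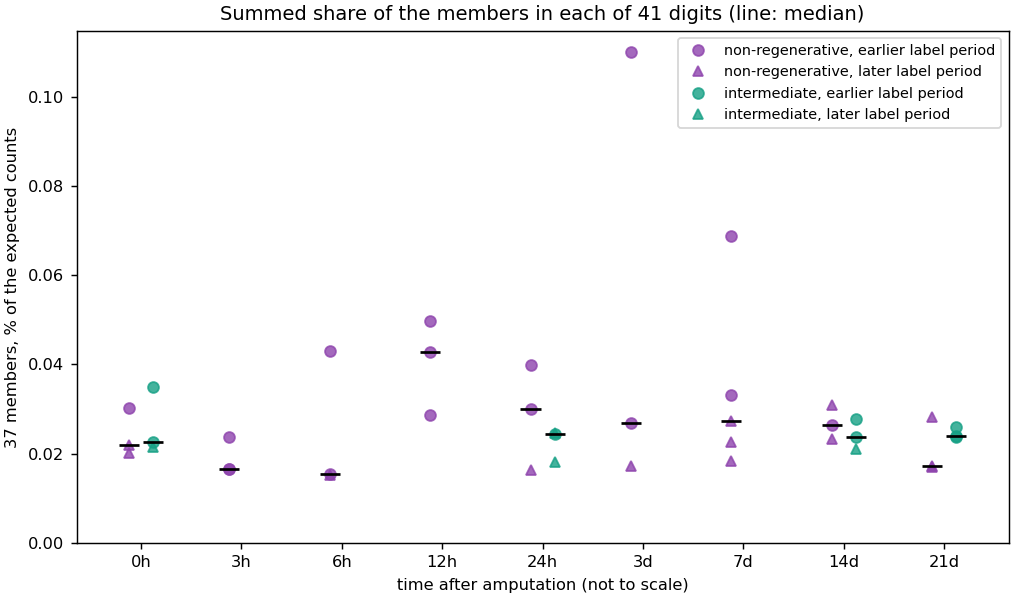
Summed share of the 37 members among all expected counts (percent) in each of 41 digits by time after amputation; circles carry label dates of the earlier period and triangles of the later, and lines are group medians. Replicate 1 at 3 days, at 0.110%, and replicate 4 at 7 days, at 0.0688%, lie above all other digits, and all 3 digits at 12 hours are of the earlier period.

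The time at which a member was highest shifted with that digit. By the mean of NR groups, 17 of 37 members were highest at 3 days and 8 at 12 hours, against 5.74% and 8.67% of 13691 genes. Without replicate 1 at 3 days, 17 were highest at 12 hours and 1 at 3 days. Of all 13691 genes, 8.82% were highest at 12 hours without that digit. These shares take in replicate 2 at 14 days, whose scale is inflated. Without the 3 digits that stand apart as well, 16 members and 12.3% of genes were highest at 12 hours.

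The label dates moved with the members as well. With the group as a term, members were lower in digits of the later than of the earlier period in 34 of 37, with a median log2 fold change of -0.79 against -0.05 over all genes tested, of which 55.0% were negative. Of these, Rsad2 (-1.87 ± 0.58, edgeR adjusted p = 0.041) and Samd9l (-1.13 ± 0.29, adjusted p = 0.0114) were called, where 8.23% of genes were called and 3.09% were called lower. An unadjusted p under 0.05 was found for 11 members and for 21.8% of all genes. Without replicate 1 at 3 days, which is of the earlier period, Samd9l was called alone. Without the 3 digits that stand apart 6 members were called lower. The labels give dates only, and what differed between the periods is not given.

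No member was called in INT digits at any later time against 0 hours. In order of time, edgeR called 0.0152%, 1.68% and 1.39% of all genes. At an unadjusted p under 0.05 there were 2, 3 and 3 members, against 15.4%, 13.4% and 16.6% of all genes, and DESeq2 called 1 (Oas3), 0 and 1 (Rsad2, lower). Ifi204 in INT digits was at 5.54, 6.12 and 12 at 0 hours and 25.8, 6.0 and 12.8 at 24 hours, and these overlapped (2.02-fold, edgeR adjusted p = 0.389). Isg15 was at 1.44, 2.15 and 7.02 at 0 hours and 2.84, 6.19 and 8.26 at 24 hours, which overlapped too (0.80 ± 0.74, adjusted p = 0.635). INT digits were not sampled at 6 and 12 hours, the times of the first NR calls. Oas3, at 0.470, 0.969 and 2.37 at 0 hours and 8.29, 4.76 and 2.53 at 24 hours, did not overlap (1.85 ± 0.45, adjusted p = 0.139).

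INT and NR digits were also compared at the same times. No member was called by edgeR at hours 0 and 24 or days 14 and 21, where 0, 0, 0 and 0.648% of all genes were called. At an unadjusted p under 0.05 there were 0, 2, 2 and 3 members, against 3.64%, 11.3%, 2.0% and 14% of all genes, and DESeq2 and limma called 0 members each time. The differences are not narrow: at 24 hours Ifi204 differed by -1.53 ± 0.51 (edgeR adjusted p = 0.376), Isg15 by -0.67 ± 0.80 and Ifit1 by 0.71 ± 1.2. Each label date at 24 hours holds digits of both kinds. On the earlier date Ifi204 was at 44.4 and 58.0 in NR and 25.8 in INT digits, and on the later date at 23.7 in NR and 6.0 and 12.8 in INT. NR digits thus lay above INT digits on each date, while the groups overlapped across dates. With so few digits per date this order can arise by chance, and the share of all genes that show it is not given. With the date as a block the difference in Ifi204 at 24 hours was -1.17 ± 0.27 (edgeR adjusted p = 0.259), and no member was called at 24 hours or day 14. At 0 hours the shared date holds a single NR digit, so no count is given. At 21 days the INT digits are all of the earlier period and the NR digits all of the later one, so period and amputation level cannot be told apart there. Over the 4 shared times together 0 of 36 members were called and 0 had an unadjusted p under 0.05, which 5.92% of all genes had. The test of the difference between the INT and NR changes from 0 hours called 0 of 36 members at each later time, with 1, 3 and 0 members at an unadjusted p under 0.05, against 3.06%, 10.7% and 1.29% of all genes, and called 0 of all genes. The summed levels overlapped at each shared time, for instance 143 to 334 normalized TPM in NR and 158 to 226 in INT digits at 24 hours.

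Of the 44 pathway genes, 23 could be tested at 12 hours and 3 were called, all higher: Trex1, a nuclease that clears cytosolic DNA, the kinase inhibitor Socs3, and Tmem173 (STING), the adaptor for cytosolic DNA. Of all genes tested 11.4% were called at that time and 6.76% called higher. Trex1 was at 10, 0.0499 and 3.57 at 0 hours and 54.5, 34.0 and 27.1 at 12 hours and rose by 3.28 ± 0.94 (edgeR adjusted p = 0.0449). Socs3 was at 38.2, 12.3 and 7.10 and then 91.4, 98.1 and 122, a rise of 2.52 ± 0.53. Both were apart from their 0-hour digits. At 24 hours the same 3 genes and Socs1 (2.22 ± 0.62) were called higher, where 5.57% of all genes were. Stat2, Irf9, Irf7, Irf3 and Irf1 were tested at both times and none was called. Of the 19 ligands, 16 had no count in any digit, Ifnb1 among them, which in the shallowest digit allows a share of up to 0.000204% of counts. Ifna16, Ifnk and Ifne had at most 7 counts in a digit.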

How the data were processed

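RNA-seq of 9 macrophage and 41 digit libraries was used. The authors mapped single-end reads of polyadenylated RNA to Ensembl 75 mouse genes (mm10) with Bowtie 0.12.8 and deposited expected counts from RSEM 1.2.3. The authors also deposited normalized TPM, a signal in which TPM was rescaled per library by the median-by-ratio method. For digits, 26 gene names that had become dates were restored from the transcript lists. Samples were grouped by their labels, and 0 columns were left without a sample. The members and gene lists were chosen with earlier results of these data known.

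Expected counts were rounded. Each pair of groups was tested on its own libraries with edgeR 4.0.16 in R 4.3.3 (filterByExpr, TMM, glmQLFit, glmQLFTest) and adjusted by Benjamini-Hochberg over all genes tested. A gene was called at an adjusted p under 0.05 and a change of more than 2-fold in the mean normalized count plus 1. The fold rule was not asked of the series, the period, or the shared times. The EBSeq test named in the methods was not run. Alternatives were DESeq2 1.42.0, RLE size factors, no filter, no fold rule, limma 3.58.1 on log2(normalized TPM + 1) for genes with a mean of at least 1, leaving out each library of the 2 groups or the NR series compared, a block for replicate number (macrophages) or label date (digits, added after seeing the data) and joint fits. The test and tools were checked on simulated counts. The depth was 1468749 to 13011782 counts per digit and 15683424 to 27904773 per macrophage library. A count of 0 allows up to 3 counts, which covers counting error only. Replicates differed by more than counting error (chi-square per degree of freedom 3.13 to 438 over 55 pairs). Per-library values are given for the 5 largest called rises and 3 largest called falls per macrophage comparison, for members called in digits and for Isg15 and Ifit1; pathway genes were named if called. Members outside these rules were named for their role after their values were seen. Gene positions are from GENCODE vM21 and promoters from RefSeq, both GRCm38. 1 pathway gene is not reported here.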

Additional observations from a re-analysis of the deposited data

Results flagged for a closer look

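In the 5 non-regenerative digits at 7 days, 10 of the 37 members had 1 digit far from the other 4 (Dixon's test, which flags about 1 in 20 groups by chance). Replicate 4 was the high digit in 7 of them: Isg15 at 23.1 normalized TPM with the next digit at 4.20, Ifit2 at 29.1 with the next at 4.43, Oas2 at 5.37 with the next at 1.3, Oasl1 at 5.48 with the next at 1.3, Dhx58 at 16.4 with the next at 3.74, Parp14 at 7.45 with the next at 3.30, and Xaf1 at 8.47 with the next at 2.24. The same digit had macrophage markers at 1098 CPM, against 148 to 621 in the other 4, and their part was not tested. The remaining flags were Oas3 at 8.49 in replicate 3, Zbp1 at 5.42 in replicate 1 and Eif2ak2 at 37.8 in replicate 2, the digit in which 23 members had no count. Flags that share a digit are not separate results, and the share of all genes flagged in these digits is not given. The rate of 1 in 20 therefore does not show whether 10 flags are many.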

How the results depend on the processing

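In macrophages each count of called members stayed within 1.5 times its reported value in all alternatives run: 37 in M1 against M0 throughout, 33 to 36 in M2 against M0 and 33 to 37 in M1 against M2. Leaving out 1 library gave 37, 33 to 34 and 33 to 35. No pairing of macrophage libraries by replicate number was seen. Correlations of same-numbered libraries ran from -0.0872 to 0.134 and of others from -0.111 to 0.115. With so few libraries per state this cannot exclude a shared culture or mouse. With the replicate number as a block 37, 34 and 33 members were called. In NR digits DESeq2 called 1, 5, 11, 4, 2, 1, 2 and 1 members at the 8 later times in order against 0 hours, and 9 over the series, and in INT digits it called 1 at 24 hours and 1 at 21 days. With all 41 digits in 1 fit, with or without the period, 0, 1 and 1 were called at hours 6, 12 and 24 and 2 at day 14. With limma 0 were called at 6 hours and 1 at 24 hours. With RLE size factors 1 was called at 21 days and 6 over the series, and with no filter on low counts 1 at 21 days. Without the 3 digits that stand apart, an alternative chosen after seeing the data, 4 were called over the series and 6 for the period. Leaving out 1 digit gave 0 to 1 called at 6 hours and 3 days, 2 to 10 at 12 hours, 1 to 4 at 24 hours, 0 to 1 in INT digits at 21 days against 0 hours and in INT against NR at 24 hours, and 1 to 5 over the series. For the period the only digit left out singly was replicate 1 at 3 days, and 1 was called. The single calls gained were Ifi204 at 3 days without replicate 2, Rsad2 in INT digits at 21 days without replicate 1 at 0 hours, and Ifi204 in INT against NR at 24 hours without INT replicate 1. The causes were not tested, and no called member changed sign. The replicate numbers of digits only name them, but label dates are shared between some groups. With that date as a block, added after seeing the data, 0 were called in INT against NR at 24 hours and day 14. The block fits of NR digits at 12 hours and of INT against NR at 0 hours rest on a single 0-hour NR digit, so no count is given. No other pair of digit groups compared shares a date. Depth limits the digits: the members took 349 to 3845 counts per digit, 22 to 33 of the 37 members could be tested against 0 hours, and 3 digits per group leave small changes undetectable.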
